A study of Homo sapiens with 16 samples.

Results

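The 10 circadian clock genes PER1, PER2, PER3, CRY1, CRY2, BMAL1, CLOCK, NR1D1, NR1D2 and DBP were examined by RNA sequencing in the breast cancer lines MDA-MB-468 and MDA-MB-231. They were chosen by name, as the core genes of the clock and 1 of its outputs, out of 18332 genes in the deposited table. All 10 were found by symbol, BMAL1 under its older name ARNTL, and all 10 passed the filter on low values in every comparison.

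Both are established human lines without the estrogen receptor, so each group is 1 line grown in several flasks rather than several tumors. Each line was kept for 48 hours in medium with glucose at 5 mM, the control called low glucose here, or at 25 mM, which stands for hyperglycemia and is called high glucose. This gave 4 groups of 4 replicates. Per the study's methods, both arms had first been conditioned in low glucose and were then washed and given medium without serum. The methods also give DMEM as the growth medium of MDA-MB-231 and RPMI as that of MDA-MB-468. Differences between the lines, or between their responses, therefore cannot be told apart from effects of growth medium. The labels name no osmotic control for these samples, do not say whether the replicates were separate cultures, and name no step that set the cells to a common clock phase. The p-values below therefore measure the spread between samples, which may be technical. All samples were taken at 1 time point, so the phase of a rhythm and its average level cannot be told apart.

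Each library held between 14094597 and 24425916 recovered reads, and each member had between 86 and 2167 reads in a library. The labelled lines matched most of their defining markers. The mesenchymal genes VIM and ZEB1 averaged 96228 and 1637 normalized reads in low-glucose MDA-MB-231 against 21.5 and 2.84 in low-glucose MDA-MB-468, and the epithelial genes CDH1 and ESRP1 averaged 5.51 and 12.5 against 2007 and 3688. The gene CD44, listed as a marker of MDA-MB-231, was instead higher in low-glucose MDA-MB-468 (25508 against 17995). The estrogen receptor gene ESR1 averaged 57.9 in low-glucose MDA-MB-468 against 1.31 in low-glucose MDA-MB-231.

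The mammalian clock is a transcriptional feedback loop. BMAL1 and CLOCK pair and activate genes with E-box motifs, among them the PER and CRY genes, whose proteins return to the nucleus and repress their own activator. A second loop runs through the nuclear receptors REV-ERB alpha (NR1D1) and REV-ERB beta (NR1D2), which are themselves E-box genes and repress BMAL1 in competition with the ROR activators. DBP is an E-box driven output that acts on D-box motifs, which are also found in PER genes. Individual cells in culture keep this clock, but a culture that has not been synchronized averages over cells in different phases. Serum and glucocorticoids are known to reset the phase, with PER1 as an early responder.

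The promoter stretches of the 3 members with the largest falls in high glucose, and a short site of the member that rose most in the same cells, are given because they carry the motifs through which the loop is known to act. They are RefSeq sequences on GRCh38.p14, 5′ to 3′ on the strand of the gene. The first 3 are the 250 bases before a transcription start, and the BMAL1 stretch covers positions 19 to 48 after it. Capitals mark an E-box (CACGTG) or the E-box-like CACGTT, a D-box (TTATGNAA) or a REV-ERB/ROR site (AGGTCA, or TAGGTCA in its longer form), on either strand.
NR1D1 chr17:40100590-40100839, minus strand: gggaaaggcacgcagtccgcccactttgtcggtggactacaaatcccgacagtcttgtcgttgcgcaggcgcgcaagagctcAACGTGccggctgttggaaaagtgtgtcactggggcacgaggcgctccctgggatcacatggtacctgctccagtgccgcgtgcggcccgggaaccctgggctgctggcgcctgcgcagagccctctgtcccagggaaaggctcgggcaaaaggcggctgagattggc
NR1D2 chr3:23945871-23946120, plus strand: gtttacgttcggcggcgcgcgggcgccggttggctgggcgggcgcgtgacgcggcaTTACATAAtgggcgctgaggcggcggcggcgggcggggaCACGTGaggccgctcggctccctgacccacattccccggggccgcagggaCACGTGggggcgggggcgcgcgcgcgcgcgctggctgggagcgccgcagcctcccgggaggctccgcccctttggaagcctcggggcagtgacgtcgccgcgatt
PER1 chr17:8152405-8152654, minus strand: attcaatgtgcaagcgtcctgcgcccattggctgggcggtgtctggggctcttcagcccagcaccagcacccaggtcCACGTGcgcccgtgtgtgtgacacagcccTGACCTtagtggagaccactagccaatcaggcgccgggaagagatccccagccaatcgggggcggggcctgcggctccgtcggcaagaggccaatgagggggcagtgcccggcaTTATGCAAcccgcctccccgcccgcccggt
BMAL1 chr11:13277808-13277837, plus strand: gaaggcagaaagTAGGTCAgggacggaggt

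Positions are counted from the start, with -1 as the base before it. NR1D2 carried 2 E-boxes, at -155 and -105 from its second listed start, and a D-box at -194. Neither motif was found in the window of any other listed start of NR1D2. PER1 carried an E-box at -173, a REV-ERB/ROR site at -144 and a D-box at -30. NR1D1 carried no canonical E-box in this window but an E-box-like motif at -168. The longer REV-ERB/ROR site of BMAL1 began at position 31.

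Windows of 300 bases (250 before to 50 after each start) were searched on both strands for all 10 members, which had 15 such windows among 35116. Because some members had several windows, the counts below are of members and the shares are of windows. The E-box was found in 2 members (NR1D2 and PER1) and in 7.26% of all windows, and the E-box-like motif in 5 members (CLOCK, CRY1, CRY2, NR1D1 and PER2) and in 5.34% of windows. The D-box was found in 3 members (NR1D2, PER1 and PER3; 3.3% of windows). The REV-ERB/ROR site was found in 3 (BMAL1, CRY2 and PER1; 13.8%), and its longer form, which contains it, in 2 (BMAL1 and CRY2; 1.85%). The cAMP response element TGACGTCA was found in 0 members and 1.85% of windows, the shorter TGACG within it in 5 members and 24.6%, and the glucocorticoid receptor motif AGAACA in 0 members and 14.8%. The GC box GGGCGG was found in 10 members and 45% of windows. With only the 250 bases before the start, BMAL1 no longer held a REV-ERB/ROR site. These matches are descriptions of the letters in a window and say nothing of binding.

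Levels were compared between genes as normalized reads (read counts scaled to library size by the authors) per kilobase of transcript. In low-glucose MDA-MB-231, NR1D2 stood highest at 304, followed by CRY1 at 192, NR1D1 at 190.0 and CLOCK at 138. PER2 was lowest, at 17.2, which was higher than the level of 29.6% of the genes with a length and with reads in this group. In low-glucose MDA-MB-468, NR1D2 (288) and PER3 (271) led, and PER2 (45.7) and PER1 (46.2) were lowest.

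The order was not the same in high glucose. In MDA-MB-468, NR1D1 went from the 3rd to the 7th place of the 10 members (136 to 60.8 normalized reads per kilobase) and BMAL1 from the 7th to the 5th (88.4 to 113). PER1 became the lowest member at 31.3. In MDA-MB-231, NR1D1 and CRY1 exchanged the 2nd and 3rd place, and DBP and PER3 exchanged the 6th and 7th. The other 6 members kept theirs. The NR1D1 and CRY1 means were close, at 190.0 and 192 in low glucose and 184 and 180.5 in high glucose, with overlapping replicates.

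**Figure D1:**
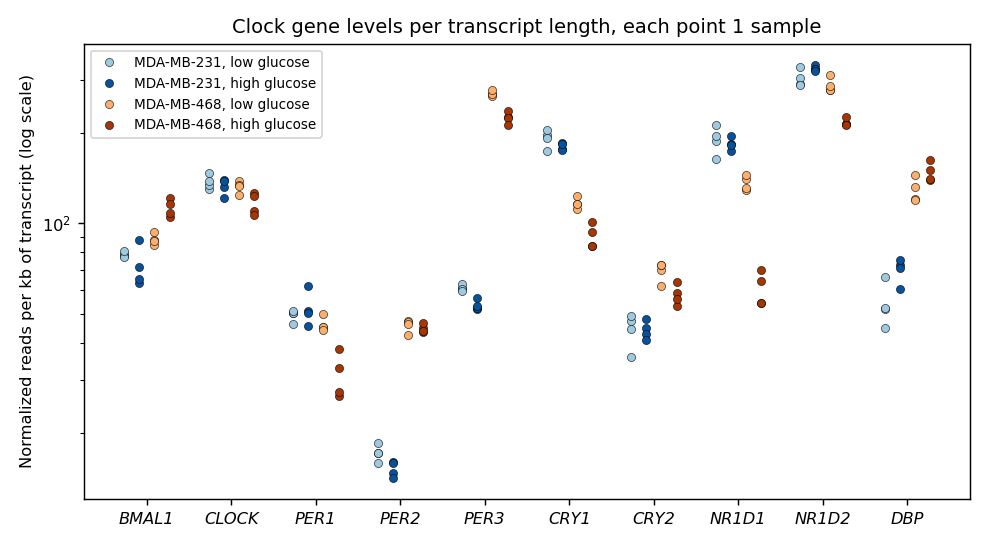
Level of each clock gene in normalized reads per kilobase of transcript (log scale), with 1 point per sample and the 4 groups side by side. NR1D2 is the highest member in every group but high-glucose MDA-MB-468, and NR1D1 drops from a mean of 136 to 60.8 in MDA-MB-468 in high glucose.

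The first comparison asked how the clock genes responded to high glucose in MDA-MB-468. In these cells the REV-ERB genes, PER1, PER3, both CRY genes and CLOCK were downregulated, while BMAL1 and DBP were upregulated. limma called 9 of the 10 members at an adjusted p under 0.05, against 47.6% of all 15757 genes tested. Of these, 7 were lower (22.7% of all genes) and 2 were higher (24.9%). The DBP call was lost in 12 and the CLOCK call in 4 of 23 alternative settings, as given below. The median log2 fold change of the members was -0.26, against 0.00 for all genes tested. The 2 glucose groups were free of overlap in 6 members, against 42.5% of all genes. In bulk RNA a lower value can come from less RNA per cell or from fewer cells that express the gene, which cannot be told apart here.

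Of the activators, BMAL1 (ENSG00000133794, plus strand of chromosome 11, 13298199 to 13408813 on GRCh37) encodes the rhythmic partner. It measured 246, 237, 259.9 and 243 normalized reads in the low-glucose replicates 1 to 4 of MDA-MB-468, and 338, 293, 323 and 301 in the high-glucose replicates. Every high-glucose sample stood above every low-glucose sample. The log2 fold change was 0.35 (SE 0.068, limma adjusted p 0.000506), or 1.27-fold. It was called in all 23 alternative settings, at 0.31 to 0.38.

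CLOCK (ENSG00000134852, minus strand of chromosome 4, 56294070 to 56413076) encodes the partner whose RNA is usually less rhythmic. It measured 1302, 1443, 1407 and 1389.5 in low glucose and 1147, 1322, 1288 and 1117 in high glucose. The highest of the high-glucose samples lay above the lowest of the low-glucose samples, so the groups overlapped. Its log2 fold change was -0.19 (SE 0.053, limma adjusted p 0.00774). The call was lost in 4 of 23 alternatives. With a correction for transcript length, which is 10470 bases for CLOCK, the log2 fold change was -0.09 and the adjusted p 0.107.

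Of the REV-ERB genes, NR1D1 showed the largest change of the 10 members. NR1D1 (ENSG00000126368, minus strand of chromosome 17, 38249046 to 38256842) measured 370.1, 338, 346 and 379.9 normalized reads in low-glucose MDA-MB-468 and 143, 185, 143 and 169 in high glucose. The highest high-glucose value was far under the lowest low-glucose value. The mean went from 359 ± 19.7 (SD, n = 4) to 159.8 ± 20.5, a change of -1.17 on the log2 scale (SE 0.087, limma adjusted p 1.73e-08), or 0.445 of the low-glucose level. In absolute size it exceeded the change of 97.0% of the genes tested in this line. In the alternatives it ranged from -1.24 to -1.12. For the other called members, the share of genes with a smaller change ran from 46.5% (CLOCK) to 84.7% (PER1).

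NR1D2 (ENSG00000174738, plus strand of chromosome 3, 23986777 to 24022108), its paralog, measured 1454, 1628, 1451 and 1498 in low glucose and 1119.9, 1122, 1186 and 1110.1 in high glucose. The groups did not overlap. NR1D2 changed by -0.41 on the log2 scale (SE 0.043, limma adjusted p 7.97e-07), smaller than that of NR1D1 but with the smaller error. The log2 difference between NR1D1 and NR1D2 within a sample averaged -2.07 ± 0.136 in low glucose and -2.83 ± 0.209 in high glucose, so the paralogs did not fall in proportion.

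Among the repressors, PER1 (ENSG00000179094, minus strand of chromosome 17, 8043790 to 8059824) fell most. It measured 212, 211, 207 and 234 in low glucose and 124, 154, 179 and 128 in high glucose. The groups did not overlap, although the spread in high glucose (SD 25.2) was wider than in low glucose (12.1). The log2 fold change was -0.57 (SE 0.11, limma adjusted p 0.000307).

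CRY1 (ENSG00000008405, minus strand of chromosome 12, 107385142 to 107487327), the stronger of the cryptochrome repressors, measured 346, 369, 333 and 348 in low glucose and 251, 301, 251 and 279 in high glucose. All 4 high-glucose values were below all 4 low-glucose values, and its log2 fold change was -0.37 (SE 0.071, limma adjusted p 0.000425). CRY2 (ENSG00000121671, plus strand of chromosome 11, 45868669 to 45904799) measured 288, 301, 256 and 300.0 against 264, 219.6, 241 and 230.96. Here 1 high-glucose sample lay above 1 low-glucose sample, and the log2 fold change was -0.26 (SE 0.077, limma adjusted p 0.0108).

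PER3 (ENSG00000049246, plus strand of chromosome 1, 7844351 to 7905237), the period gene least needed for rhythm, measured 1714, 1689, 1715 and 1775 in low glucose and 1437, 1511, 1425 and 1353 in high glucose. The groups were well apart, and the log2 fold change was -0.27 (SE 0.039, limma adjusted p 2.54e-05). PER2 (ENSG00000132326, minus strand of chromosome 2, 239152685 to 239198743) was the 1 member not called. It measured 301, 271, 300.2 and 295 against 278, 285, 296 and 279, with overlapping groups. Its log2 fold change was -0.03, with a 95% interval from -0.17 to 0.10 (limma adjusted p 0.682).

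The output gene DBP (ENSG00000105516, minus strand of chromosome 19, 49133287 to 49140636) measured 286, 262, 259 and 314 normalized reads in low glucose and 303, 306, 351 and 325 in high glucose. The groups overlapped. DBP changed by 0.20 on the log2 scale (SE 0.075, limma adjusted p 0.0396). Of 23 alternatives, 12 lost this call, with adjusted p from 0.013 to 0.149, among them leaving out replicate 1, 2 or 3 of the low-glucose group or replicate 3 or 4 of the high-glucose group.

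Some members share exon bases with a gene on the opposite strand, and whether reads were counted by strand is not given in the sources used here. NR1D1 shares 473 exon bases with THRA, a thyroid hormone receptor gene, which rose in MDA-MB-468 from 236 ± 13.1 to 274 ± 15.1 (0.22 on the log2 scale, limma adjusted p 0.0177), opposite in direction to NR1D1. DBP shares 661 bases with SPHK2, a sphingosine kinase gene, which went from 693 ± 53.8 to 280.4 ± 25.2 (log2 fold change -1.30, limma adjusted p 5.57e-10), opposite in direction to DBP. CLOCK shares 76 bases with TMEM165, which was not called in either line (adjusted p 0.19 and 0.387). PER3 shares 868 bases with a protein-coding gene and 482 with a noncoding RNA gene, both on the opposite strand. Opposite-strand noncoding RNA genes also share 421 bases with BMAL1, 188 with PER2 and 94 with CRY1. None of these further opposite-strand genes is in the deposited table. PER1 shares 30 bases with a gene on its own strand. Without strand, reads in bases shared by opposite strands cannot be assigned to 1 gene of each pair. The part of shared bases in the values of all these members was not tested.

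**Figure D2:**
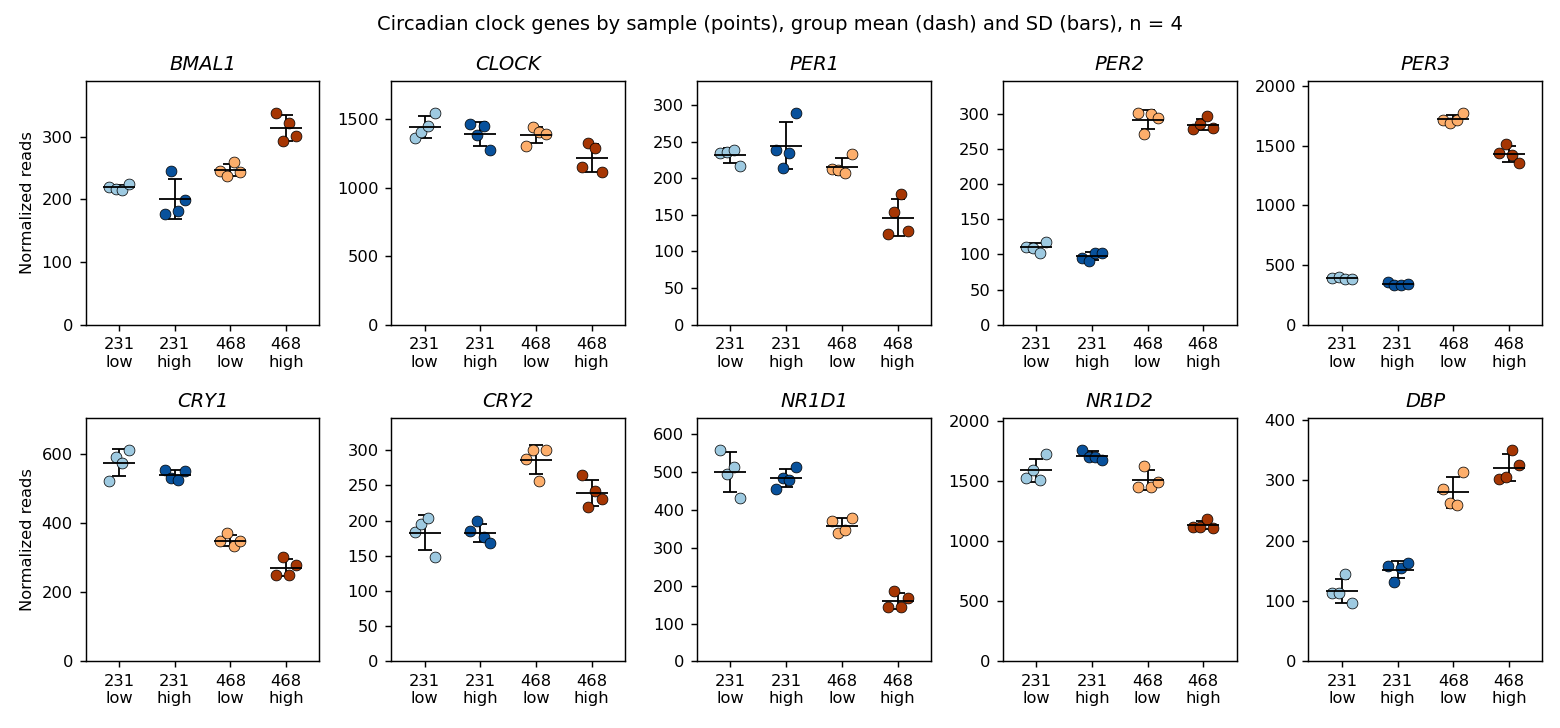
Normalized reads of each clock gene in the 16 samples (points), with the group mean (dash) and SD (bars), n = 4 per group. In MDA-MB-468, high-glucose points of NR1D1, NR1D2, PER1, PER3 and CRY1 lie wholly below the low-glucose points and those of BMAL1 wholly above, whereas in MDA-MB-231 only PER3 has groups that do not overlap.

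The second comparison put the same question to MDA-MB-231, where fewer members passed the test. limma called 2 of the 10 members, against 15.1% of all 14884 genes tested. DBP was higher (5.71% of all genes were called higher) and PER3 lower (9.37%). The groups did not overlap in 1 member, PER3, against 18.7% of all genes, and the median log2 fold change of the members was -0.05.

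DBP measured 113, 114, 144 and 97.7 in low-glucose MDA-MB-231 and 158, 131, 154 and 164 in high glucose. The lowest high-glucose sample lay under the highest low-glucose sample. The log2 fold change was 0.38 (SE 0.12, limma adjusted p 0.0334). PER3 measured 387, 399, 384 and 380.4 in low glucose and 360.0, 330.3, 332 and 339 in high glucose, which differed by -0.19 on the log2 scale (SE 0.057, limma adjusted p 0.0319). Each of the 2 calls was lost in 10 of 23 alternatives. The PER3 call was lost without replicate 1, 2 or 3 of the low-glucose group or 2, 3 or 4 of the high-glucose group, with adjusted p from 0.00314 to 0.138 over all alternatives. The DBP call was lost without replicate 1, 2 or 4 of the low-glucose group or 1, 3 or 4 of the high-glucose group, with adjusted p from 0.00673 to 0.149.

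NR1D1, the member with the largest fall in MDA-MB-468, measured 559, 495, 513 and 431 in low-glucose MDA-MB-231 and 456, 485, 479 and 515 in high glucose. The groups overlapped fully, with a log2 fold change of -0.04 and a 95% interval from -0.19 to 0.11 (limma adjusted p 0.762). NR1D2 measured 1525, 1597, 1513 and 1727 against 1765, 1705, 1703 and 1681. Its log2 fold change was 0.11 (95% interval 0.02 to 0.20, limma adjusted p 0.1), and it passed the threshold in 4 alternatives, among them without low-glucose replicate 4 (0.15, adjusted p 0.00636).

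BMAL1 measured 220.1, 217, 216 and 225 in low-glucose MDA-MB-231 and 176, 245, 182 and 199.7 in high glucose. Replicate 2 of the high-glucose group was the highest of all 8, and the other 3 were the lowest. The log2 fold change was -0.14 (95% interval -0.34 to 0.06, limma adjusted p 0.361). CLOCK (-0.05, adjusted p 0.572), CRY1 (-0.09, 0.326) and PER2 (-0.18, 0.284) were also not called by limma. PER1 (0.07, adjusted p 0.656) and CRY2 (0.00, 0.995) had limma estimates nearer to 0 than their standard errors.

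**Figure D3:**
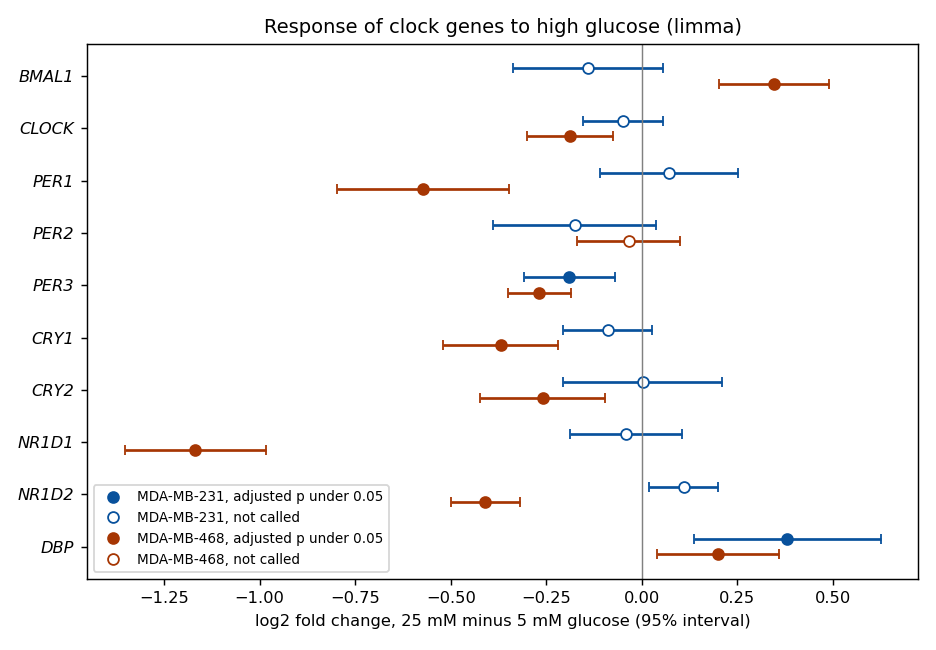
Log2 fold change of each clock gene, 25 mM minus 5 mM glucose, with its 95% interval from limma, in MDA-MB-231 (blue) and MDA-MB-468 (brown), where filled points have an adjusted p under 0.05. NR1D1 in MDA-MB-468 stands apart at -1.17, and the filled BMAL1 point in MDA-MB-468 lies above 0 at 0.35.

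Whether the lines differed in their response was tested directly by the interaction contrast over all 16 samples. It is the response of MDA-MB-468 less that of MDA-MB-231. limma called 5 of the 10 members, against 30.9% of 17115 genes tested. BMAL1 responded more positively in MDA-MB-468 (17% of all genes were called in this direction), by 0.49 on the log2 scale (SE 0.12, adjusted p 0.00476). NR1D1, PER1, NR1D2 and CRY1 responded more negatively (13.9% of all genes).

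The difference of responses was -1.13 for NR1D1 (SE 0.12, limma adjusted p 2.77e-06), -0.64 for PER1 (SE 0.15, adjusted p 0.00357) and -0.52 for NR1D2 (SE 0.062, adjusted p 6.86e-06). For CRY1 it was -0.28 (SE 0.088, limma adjusted p 0.0226), and without replicate 1 of low-glucose MDA-MB-231 the adjusted p was 0.0501. The other 5 members were not called. Their intervals ran from -0.54 to 0.02 for CRY2, from -0.50 to 0.13 for DBP, from -0.31 to 0.04 for CLOCK, from -0.19 to 0.04 for PER3 and from -0.06 to 0.34 for PER2. PER3, which was called lower in each line, thus showed no detectable difference between them.

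Expressed against BMAL1 in the same sample, the REV-ERB genes and PER1 and CRY1 shifted in MDA-MB-468. The log2 difference NR1D1 minus BMAL1 was 0.59, 0.51, 0.41 and 0.64 in the low-glucose samples and -1.24, -0.66, -1.17 and -0.83 in the high-glucose samples. NR1D1 thus had more reads than BMAL1 in every low-glucose sample and fewer in every high-glucose sample. In MDA-MB-231 the same difference averaged 1.18 ± 0.17 in low glucose and 1.28 ± 0.20 in high glucose, with overlapping groups.

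The log2 difference NR1D2 minus BMAL1 averaged 2.61 ± 0.13 and 1.85 ± 0.09 in low- and high-glucose MDA-MB-468, that of PER1 minus BMAL1 -0.19 ± 0.11 and -1.11 ± 0.27, and that of CRY1 minus BMAL1 0.50 ± 0.12 and -0.22 ± 0.22. In each of these the 4 samples of 1 group lay apart from those of the other. For DBP minus BMAL1 the averages were 0.18 ± 0.15 and 0.04 ± 0.13, and the groups overlapped. These differences combine values already tested above and were given no test of their own.

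**Figure D4:**
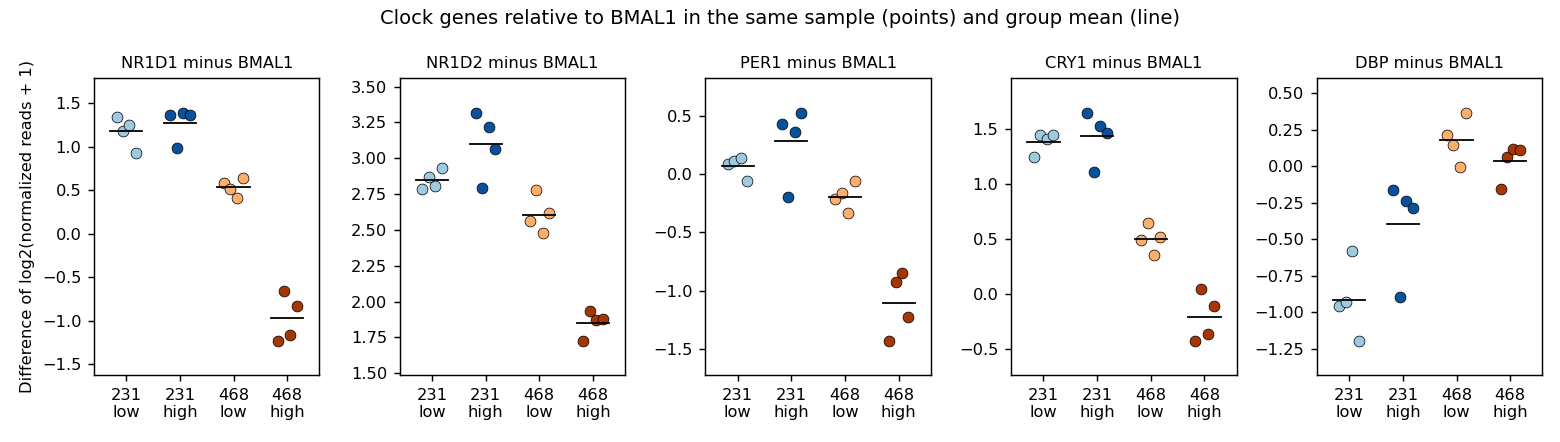
Difference of log2(normalized reads + 1) between a clock gene and BMAL1 in the same sample (points) with the group mean (line), for 5 members and the 4 groups. In MDA-MB-468 the difference for NR1D1 goes from above 0 in all 4 low-glucose samples to below 0 in all 4 high-glucose samples, while DBP minus BMAL1 overlaps.

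Across the 8 MDA-MB-468 samples, log2 BMAL1 ran opposite to CRY1 (Pearson r -0.988), NR1D1 (-0.968) and NR1D2 (-0.920). In MDA-MB-231 the same r values were 0.195, 0.168 and -0.357. The points fall into a low- and a high-glucose cluster and share their library, so these values describe the samples and were not tested.

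The lines also differed in their clock gene levels apart from glucose. In low glucose, limma called 6 of the 10 members between the lines, against 85.4% of 17115 genes, so a call was not unusual here. PER3, PER2, DBP and CRY2 were higher in MDA-MB-468 (45% of all genes were), and CRY1 and NR1D1 were lower (40.4%). The groups did not overlap in 7 members, against 80.5% of all genes. These contrasts share their samples with the glucose comparisons, and in them line and growth medium cannot be told apart.

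PER3 showed the widest gap, from 388 ± 8.11 normalized reads in low-glucose MDA-MB-231 to 1723 ± 36.6 in low-glucose MDA-MB-468 (log2 fold change 2.15, limma adjusted p 1.44e-18), or 4.43-fold. PER2 went from 109.9 ± 6.76 to 292 ± 14.2 (1.40, adjusted p 1.21e-12 by limma), and DBP from 117 ± 19.5 to 280.5 ± 25.7 (1.26, adjusted p 3.99e-09). CRY2 was higher by 0.65 (adjusted p 5.16e-06) and CRY1 lower, with a log2 fold change of -0.72 (adjusted p 7.57e-09). NR1D1 was also lower, at -0.47 (adjusted p 7.39e-05). PER1, CLOCK and NR1D2 differed by -0.10, -0.06 and -0.08 and were not called, nor was BMAL1 (0.17, adjusted p 0.0755), although its groups did not overlap.

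In high glucose all 10 members were called between the lines, against 85.2% of all genes, 5 higher in MDA-MB-468 (44.6% of genes) and 5 lower (40.6%). The groups did not overlap in 9 members, against 79.9% of genes. The order of group means shows where the lines came to differ. For NR1D1 it ran from low- and high-glucose MDA-MB-231 (499.6 and 484, overlapping) to low-glucose MDA-MB-468 (359) and then high-glucose MDA-MB-468 (159.8), and neither of the last 2 groups overlapped its neighbour above. For PER1 the first 3 groups overlapped their neighbours (244, 231.03 and 216) and only high-glucose MDA-MB-468 stood apart (146). NR1D2 had the same order (1714, 1591, 1508 and 1134), again with only the last group apart. For BMAL1, high-glucose MDA-MB-468 was the highest (314), followed by low-glucose MDA-MB-468 (246). The low- and high-glucose groups of MDA-MB-231 (219.5 and 201) overlapped each other. Neither MDA-MB-468 group overlapped the one next below it. Low-glucose MDA-MB-468 did overlap high-glucose MDA-MB-231, whose replicate 2 (245) lay above the lowest low-glucose MDA-MB-468 sample (237). The call for CLOCK in high glucose (-0.19, limma adjusted p 0.00534) was lost under quantile rescaling (-0.12, adjusted p 0.0777).

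Genes around the core loop were followed in 6 further lists, and none of their members is part of the 10 except PER1, which is also an input gene. Their counts are read against all genes tested, of which 24.9% were called higher and 22.7% lower in MDA-MB-468, and 5.71% higher and 9.37% lower in MDA-MB-231. Counts this small were not tested against those shares. Among the second-loop and D-box factors, 2 were called higher and 1 lower of 5 tested in MDA-MB-468 (all genes, 24.9% and 22.7%). HLF, a D-box activator related to DBP, went from 10.2 ± 1.65 to 47.0 ± 2.73 normalized reads (log2 fold change 2.10, limma adjusted p 6.36e-07). TEF, another D-box activator, fell from 1004 ± 33.9 to 803 ± 33.6 (-0.32, adjusted p 1.55e-05). RORA and the D-box repressor NFIL3 were not called, and RORB had too few reads in MDA-MB-468 to be tested.

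The 3 D-box activators did not move together, since HLF rose, TEF fell and DBP was called higher in fewer than all settings, as given above. In MDA-MB-231, TEF was called higher (0.20, limma adjusted p 0.0334), which made 1 higher and 0 lower of 4 tested (all genes, 5.71% and 9.37%). The difference of the TEF response between lines was -0.52 (adjusted p 8.38e-06). HLF was under the 3-read floor on average in MDA-MB-231 and was not tested there.

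Of the 6 partners and repressors at E-boxes, 1 was higher and 1 lower in MDA-MB-468, no larger a share than the 24.9% and 22.7% of all genes. NPAS2, which can stand in for CLOCK, rose by 0.35 (169 ± 9.17 to 215 ± 20.3, limma adjusted p 0.00305). CIART, a repressor of BMAL1 and CLOCK, changed by -0.40 (adjusted p 0.0052). In MDA-MB-231, BHLHE41 rose by 0.35 (adjusted p 0.00519), while its paralog BHLHE40 (-0.21, adjusted p 0.00038) and TIMELESS (-0.31, adjusted p 8.25e-05), a replication fork protein, were lower.

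The enzymes and cofactors that act on clock proteins were called in both directions. Of the kinases, phosphatases and ubiquitin ligases, 6 were higher and 1 lower of 16 tested in MDA-MB-468 (all genes, 24.9% and 22.7%). In MDA-MB-231, 0 were higher and 2 lower of 15 (all genes, 5.71% and 9.37%). The phosphatase subunit PPP1CC was called in both lines in opposite directions, at 0.29 in MDA-MB-468 (limma adjusted p 1.2e-06) and -0.11 in MDA-MB-231 (adjusted p 0.0359). CSNK1A1, a casein kinase, rose by 0.16 and GSK3B changed by -0.20 in MDA-MB-468, and USP7, a deubiquitinase, by -0.16 in MDA-MB-231. Of 12 chromatin cofactors, 6 were higher and 2 lower in MDA-MB-468 (all genes, 24.9% and 22.7%). The largest rises were in RBM4 (0.54, limma adjusted p 1.08e-07) and the methyltransferase PRMT5 (0.34). The acetyltransferases EP300 (-0.24) and CREBBP (-0.15) were lower there. In MDA-MB-231, 0 were higher and 3 lower (all genes, 5.71% and 9.37%), among them CREBBP (-0.12).

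Of the known clock outputs, 2 were higher and 4 lower of 8 tested in MDA-MB-468 (all genes, 24.9% and 22.7%). The cell cycle inhibitor CDKN1A went from 547 ± 45.1 to 971 ± 71.8 (0.83, limma adjusted p 1.97e-08), and NAMPT, the rate-limiting enzyme of NAD salvage, rose by 0.09 (adjusted p 0.0296). NOCT (-0.39) and KLF10 (-0.23) were lower. In MDA-MB-231, 1 was higher and 3 lower of 10 tested (all genes, 5.71% and 9.37%). PPARGC1A changed by 0.48 and the kinase WEE1 by -0.29.

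Of 15 genes that carry or report glucocorticoid and cAMP input, 3 were higher and 5 lower in MDA-MB-468 (all genes, 24.9% and 22.7%). In MDA-MB-231, 1 was higher and 5 were lower (all genes, 5.71% and 9.37%). In MDA-MB-468, SGK1 (0.43, limma adjusted p 3.3e-06) and FKBP5 (0.28, adjusted p 2.8e-05) rose, while KLF9 (-1.03, adjusted p 0.000827) and PER1 were lower, all of them known glucocorticoid receptor targets. In MDA-MB-231, TSC22D3 rose by 0.29, and DUSP1 (-0.58, adjusted p 1.36e-05) and SGK1 (-0.36) were lower. SGK1 thus had opposite signs in the 2 lines, with an interaction of 0.79 (adjusted p 1.03e-07).

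In MDA-MB-468 the medians of the 6 lists lay between -0.11 and 0.18 on the log2 scale, and in MDA-MB-231 between -0.07 and 0.00, beside medians of 0.00 over all genes tested in each line.

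**Figure D5:**
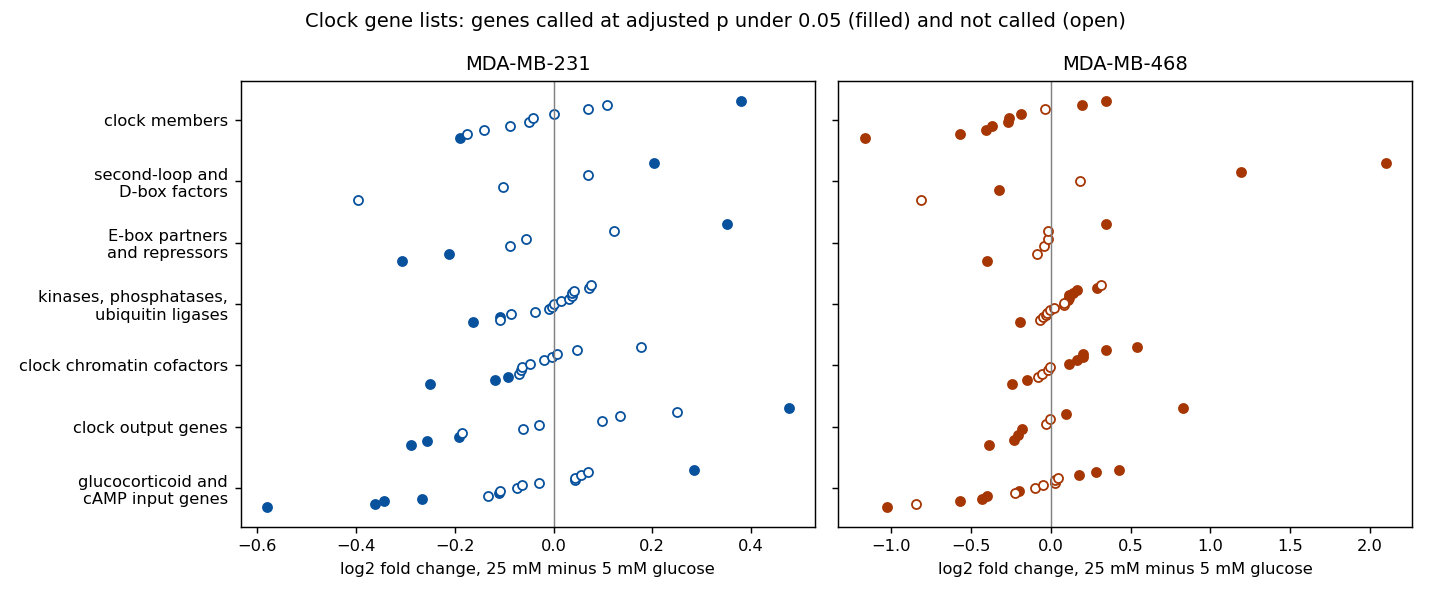
Log2 fold change (25 mM minus 5 mM glucose) of every tested gene of the clock members and the 6 further lists, in MDA-MB-231 (left) and MDA-MB-468 (right), where filled points have a limma adjusted p under 0.05. In MDA-MB-468 the clock members lie mostly below 0, while HLF at 2.10 and KLF9 at -1.03 are the extremes of the other lists.

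The genes most like each called member were found by Pearson r of log2 values over the 16 samples, centred on the mean of each line, among 13573 genes. TRIM8 and UBR4 were most like NR1D1 (r 0.980 and 0.979), and both were lower in high-glucose MDA-MB-468, with log2 fold changes of -0.38 and -0.63. FAM210A and C11orf54 were most like NR1D2 (0.977 and 0.973), MED10 and PDGFRL most like PER1 (0.918 and 0.914), and DTNB and SORD most like BMAL1 (0.926 and 0.906). GINS4 and MDC1 were nearest to PER3 (0.962 and 0.960), and BRCA2 and SYT11 to CRY1 (0.935 and 0.930). USP53 and MED13 were nearest to CLOCK (0.919 and 0.914), ALKBH6 and PSMB8-AS1 to CRY2 (0.901 and 0.855), and ARFIP2 and TMEM184A to DBP (0.913 and 0.898). These r values are descriptions, since the genes share the same 16 libraries and 47.6% of all genes tested were called in MDA-MB-468.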

How the data were processed

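RNA was sequenced from 16 samples of MDA-MB-231 and MDA-MB-468 cells, grouped and numbered by the sample labels. The study's methods name trimming with Trimmomatic, alignment to hg19 with TopHat and an Ensembl annotation, a stranded library kit, DESeq2, and edgeR for CPM with TMM factors. The submitters' processing notes name edgeR too, but hg38 as the build. The counting program and its use of strand are not given in the sources used here. The deposited table does not hold such CPM but gives for each gene a normalized signal, in which the authors had scaled read counts to library size by 1 factor per library. Dividing by the smallest step of a library gave whole numbers for 100% of the values (to within 5.82e-05 of a read), so whole reads were recovered and used in edgeR and DESeq2 as alternatives. Recovered reads ranged from 14094597 to 24425916, and a floor of 3 reads corresponded to 0.123 to 0.213 CPM, which covers counting error only.

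Genes reaching 0.5 CPM in at least 2 samples of a fit entered limma 3.58.1 (R 4.3.3) as log2(value + 1), where a fold change understates that of low genes. The two-sided moderated test (lmFit, then eBayes with trend) was adjusted over all genes by Benjamini-Hochberg, with a threshold of 0.05. Each glucose contrast used the 8 samples of its line. The interaction and the contrasts between lines used a model of 4 group means over 16 samples.

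Symbols, lengths and GRCh37 positions came from a GENCODE annotation, with a symbol for 16633 and a length for 17418 of 18332 genes. Promoters were RefSeq sequences on GRCh38.p14. The members, the further gene lists and the tests were chosen with earlier results of these data known. All 10 members were named in every contrast. From each other list, up to 2 called genes per direction and glucose contrast with the largest absolute log2 fold change were named, and the 2 most alike genes for each member called in a glucose contrast. Some genes that met this rule are not reported here. A single symbol of 17 in the enzyme list, FBXL21P, was not found. THRA, SPHK2 and TMEM165 were named for their overlap after the values were seen, as were NFIL3, RORA and RORB and the marker genes of the lines. The alternatives were other pseudocounts (0.5 and 5), no filter or 1 CPM in 4 samples, other scalings and tests (edgeR 4.0.16 and DESeq2 1.42.0 among them), the replicate number as a block, a loess correction for transcript length (span 0.5), 1 fit of all 16 samples, and leaving out each replicate. The fitting step was tested on simulated data.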

Additional observations from a re-analysis of the deposited data

Results flagged for a closer look

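The response to high glucose differed between the lines, by the interaction contrast in limma, for 5 of the 10 members. The difference, MDA-MB-468 minus MDA-MB-231 on the log2 scale, was -1.13 for NR1D1, -0.64 for PER1, -0.52 for NR1D2, -0.28 for CRY1 and 0.49 for BMAL1. NR1D1, NR1D2, PER1 and CRY1 were called lower in MDA-MB-468 and not called in MDA-MB-231, and BMAL1 was called higher in MDA-MB-468 and not called in MDA-MB-231.

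In 2 of the 40 sets of 4 replicates, 1 sample stood apart from the other 3 by Dixon's criterion, which flags about 1 group in 20 by chance. PER1 in low-glucose MDA-MB-231 was 216 normalized reads in replicate 4, against 234 to 238 in the others. NR1D2 in high-glucose MDA-MB-468 was 1186 in replicate 3, against 1110.1 to 1122 in the others, and it was still below every low-glucose sample.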

How the results depend on the processing

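Over 50 results (10 members in 5 contrasts) and 1200 values from alternative settings, 1139 kept the direction and the side of the threshold, 38 lost a call, 9 gained one and 14 changed sign. The 7 downregulated members of MDA-MB-468, the 5 interaction calls and the counts between lines stayed within 1.5 times under every alternative run. In MDA-MB-231 the 1 upregulated member became 0 with no filter, limma without trend, a linear model without moderation (added after seeing the data) and the replicate block, and 2 with quantile rescaling, length correction and length correction with the block. The 1 downregulated member became 0 with DESeq2, the block, length correction and both together. Leaving out 1 replicate gave 0 to 1 in each direction. In MDA-MB-468 the 2 upregulated members became 1 with quantile rescaling, DESeq2, limma without trend, no moderation, length correction alone or with the block, and 1 fit of all 16 samples, and 1 to 2 without 1 replicate. The cause was not tested. Same-numbered samples correlated between -0.04 and 0.0319 in their deviations from the group means. These values were not tested and cannot show whether same-numbered samples shared a handling step. The replicate block by itself lost the DBP and PER3 calls of MDA-MB-231 (limma adjusted p 0.0535 and 0.0713) and changed no other call. Signs turned only for members called in neither setting. In MDA-MB-231 CRY2 was -0.00259 with quantile rescaling, -0.00239 with edgeR, -0.00159 with DESeq2 and between -0.0957 and 0.0561 without 1 replicate (-0.0957, -0.00629 and -0.0410 without low-glucose replicate 4 and high-glucose replicates 1 and 2). CLOCK was 0.0125 with length correction alone or with the block, NR1D1 between -0.110 and 0.0151 without 1 replicate (highest without low-glucose replicate 1) and PER1 between -0.0135 and 0.132 (lowest without high-glucose replicate 4). In MDA-MB-468 PER2 was 0.0183 with length correction alone or with the block, and between lines in low glucose CLOCK was 0.0574 and NR1D2 0.0342 with quantile rescaling. The standard errors of the members in the glucose contrasts ran from 0.039 to 0.12 on the log2 scale, and each member had at least 86 reads in a library. Some differences above their standard error were not called, among them NR1D2 (0.11, SE 0.043) and BMAL1 (-0.14, SE 0.093) in MDA-MB-231, and the shares of depth and of the spread between 4 replicates in this were not tested.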
